A study of Mus musculus with 6 samples.

Results

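Glycolysis turns glucose into pyruvate and lactate in the cytosol, and hypoxia-inducible factor (HIF) is a transcription factor that induces many of its genes when oxygen is scarce. The 32 mouse genes described here are the enzymes and transporters of that pathway together with HIF-1α itself, its oxygen sensors and some further genes known as HIF targets, of 23462 genes named on the array. They were taken from a list of gene names, which was set with earlier results of these data known although its rule uses no measured value, and each was read from 1 probe, that with the highest mean signal over the arrays. Gene expression was measured in microglia, the resident macrophages of the brain, of male C57BL/6 mice labelled as 10 weeks old, with 3 arrays from PGC-1αf/f mice and 3 from mPGC-1α mice. Both genotypes carry a loxP-controlled PGC-1α overexpression allele linked to eGFP. The mPGC-1α mice also carry the tamoxifen-inducible Cx3cr1-Cre/ER, which is active in any cell that expresses Cx3cr1, whereas the PGC-1αf/f mice were littermate controls. According to the study's methods, tamoxifen was given before the experiments, and cells were selected with magnetic beads through P2RY12, a surface receptor of microglia. The comparison asks whether overexpression of PGC-1α, which is known for its control of mitochondrial genes, went with a difference in the genes of glycolysis. Only the mPGC-1α mice carry Cre at the Cx3cr1 locus, so its presence cannot be told apart from PGC-1α overexpression here.

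In this pathway glucose enters through SLC2A transporters and is trapped by hexokinases. Upper glycolysis splits the sugar into triose phosphates at the expense of ATP, and lower glycolysis recovers ATP and yields pyruvate, which lactate dehydrogenase reduces to lactate for export by SLC16A transporters. Prolyl hydroxylases of the EGLN family mark HIF-1α for degradation when oxygen is present, and EGLN3 is itself a HIF target. Microglia and other macrophages are known to draw more on glycolysis when they are activated.

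Between 27025 and 30272 of 59305 spots per array were well above background, and no spot was saturated. The number of arrays limits the precision, and nothing in the labels says which animals or pools the samples came from, so p-values measure only the spread between these samples. All controls lay in row 1 of the slide and all mPGC-1α arrays in row 2, so that slide row and genotype cannot be told apart, and slide columns 1 and 2 each held 1 array of each group. Ppargc1a, which encodes PGC-1α, had a log2 difference of 0.80 between the mPGC-1α and control arrays, with overlapping groups and short of the threshold (limma, adjusted p = 0.306). It was 0.44 without PGC-1αf/f replicate 3. PGC-1αf/f replicate 3 and mPGC-1α replicate 3 stood apart from the other arrays. On mPGC-1α replicate 3 the summed signal of 4 Y-linked genes was 0.0664, in units of the 75th percentile of the array, against 1.14 to 5.23 on the other arrays, although every sample is labelled male. The signal of 1 female marker was 0.323 there, 0.190 on mPGC-1α replicate 2 and 0.146 on PGC-1αf/f replicate 2. It was 0.0113 to 0.0230 on the remaining arrays, and this marker was not tested. On PGC-1αf/f replicate 3 the summed signal of 20 neutrophil and monocyte markers was 38.3, against 166 and 200 on the other controls and 204 to 246 on the mPGC-1α arrays. The microglial markers summed to 203 to 252 in controls and 181 to 242 in mPGC-1α arrays, and all 14 were above background on every array, with a median difference of -0.18 (-0.22 to -0.0825 when each array was left out) and 12 of 14 below 0. Cx3cr1, the gene whose locus drives Cre, had a difference of -0.51 without overlap (limma, adjusted p = 0.194), and P2ry12, on which cells were selected, had one of -0.31 over 5 arrays (limma, adjusted p = 0.478), or -0.03 without PGC-1αf/f replicate 3.

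The upstream sequences of some of these genes are shown because the HIF recognition core is what the group is named for. RefSeq start sites (assembly GRCm38.p6) were found for 31 of the 32 genes, all but Slc2a3, and the 250 bases before each start were searched on both strands for ACGTG and GCGTG, the usual forms of the core. A core was present for 28 of the 31 genes (90.3%), as against 41.5% of all 27025 genes with such a sequence. These genes had more start sites each, with 45 windows (1.45 a gene) against 32851 (1.22 a gene), and a core was present in 82.2% of their windows and in 38.6% of all windows. ACGTG alone was found for 64.5% of the genes and for 18.5% of all genes, and GCGTG for 64.5% and 30.9%. A CACGTG holds ACGTG on both strands, the forms can overlap, and the windows of these genes were richer in G and C, with a median of 60.4% against 52.4%. Eno2, Gpi1 and Tpi1 had no core in their window. Vegfa, Hk1, Pkm, Aldoa and Pfkm were counted with a core although a window of each held none. The Vegfa cores lay only at chr17:46025164-46025413, downstream of its other start site on the minus strand. The sequence AAGGTCA, the half-site of the estrogen-related receptors that PGC-1α is known to coactivate, was present for 1 gene, Eno1 (3.23%), as against 4.70% of all genes. Below are the windows, 5′ to 3′, of the genes the results turn on, which are Egln3 and Tpi1 with the lowest adjusted p-values, Ldha as the classical HIF target of the pathway (first start site), and P4ha1 as the single gene lower on every mPGC-1α array. Capitals mark the cores on either strand. They lie at chr12:54203875-54204124 on the minus strand, chr6:124814159-124814408 on the minus strand, chr7:46845554-46845803 on the plus strand and chr10:59323046-59323295 on the plus strand.
Egln3: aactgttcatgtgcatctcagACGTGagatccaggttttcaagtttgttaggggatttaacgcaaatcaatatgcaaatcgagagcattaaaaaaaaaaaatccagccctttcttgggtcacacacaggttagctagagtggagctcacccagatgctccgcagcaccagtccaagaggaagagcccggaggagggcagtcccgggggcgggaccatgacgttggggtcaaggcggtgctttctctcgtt
Tpi1: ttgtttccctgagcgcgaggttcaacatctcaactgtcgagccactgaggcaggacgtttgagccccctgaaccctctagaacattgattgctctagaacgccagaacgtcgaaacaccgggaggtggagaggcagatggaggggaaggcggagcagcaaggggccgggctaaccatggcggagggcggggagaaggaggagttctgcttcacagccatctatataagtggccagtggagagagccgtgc
Ldha: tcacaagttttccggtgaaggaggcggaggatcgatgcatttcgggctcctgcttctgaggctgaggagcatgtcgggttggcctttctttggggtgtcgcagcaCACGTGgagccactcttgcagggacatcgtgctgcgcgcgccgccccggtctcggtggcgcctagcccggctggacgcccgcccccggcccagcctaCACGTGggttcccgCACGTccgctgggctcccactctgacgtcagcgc
P4ha1: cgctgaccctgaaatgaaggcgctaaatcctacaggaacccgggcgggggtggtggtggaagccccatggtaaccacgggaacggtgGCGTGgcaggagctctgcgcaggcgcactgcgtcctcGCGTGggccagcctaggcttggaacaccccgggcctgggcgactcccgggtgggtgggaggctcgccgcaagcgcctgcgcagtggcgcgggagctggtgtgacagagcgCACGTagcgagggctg
The Ldha window holds 2 copies of CACGTG and a further core close to the start, the P4ha1 window holds cores at 3 places, the Egln3 window holds 1 core far from the start, and the Tpi1 window holds none. Since 28 of the 31 genes had a core and these windows were chosen by the results, they cannot show whether a core went with a larger difference. A match describes letters, not binding.

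No glycolysis or HIF gene passed the threshold of an adjusted p of 0.05 (limma, Benjamini-Hochberg over all 25257 probes tested), whereas 0.0792% of all tested probes did. Of the 32 genes, 31 could be tested, and their lowest adjusted p was 0.208, for Egln3. At an unadjusted p under 0.05, 2 genes were higher in the mPGC-1α arrays, Egln3 and Tpi1, which is 6.45% of those tested, and 0 were lower. Egln3 was above background on 2 of 3 controls and entered the test only through the mPGC-1α arrays, where it was higher, so its p-value and its place in these counts are no independent support. With probes above background on all 6 arrays only, Egln3 was left out and the 2 genes at an unadjusted p under 0.05 were Tpi1 and Pfkp. The background was 7.53% of all probes higher and 9.21% lower, so that the share among these genes was no larger than that on the whole array. Among the 26 tested genes with a value on every array, all 3 mPGC-1α arrays were above all 3 controls for 6 genes (23.1%) and below them for 1 (3.85%), against 11.4% and 13.7% of all probes with 6 values. The first 6 were Egln3, Slc2a1, Pfkp, Tpi1, Ldha and Ero1l, and the last was P4ha1. With arrays shifted by their median in place of the 75th percentile, the median of all probes moved to -0.14. The groups then did not overlap for 3 genes higher and 2 lower, against 25.7% of all probes in either direction. At an unadjusted p under 0.05, 2 genes were higher and 1 lower, P4ha1 being the last. With that shift, 1298 of all 25257 probes were higher at such a p and 3089 were lower. Differences of the 31 genes ran from -0.34 to 0.90 on the log2 scale, with a median of 0.22, and 22 of them were above 0 (71.0%), whereas over all 13085 tested genes the median was 0.02 and 52.9% were above 0. The median of the 31 genes was 0.0882 with the median shift, with 19 of them above 0, 0.145 with normexp background correction and 0.125 with array weights. In 26 of the 31 genes the 95% interval of the difference lay within a 2-fold change either way, and the exceptions were Egln3, Slc2a3, Pfkp, Eno2 and Slc16a1. In such bulk samples, fewer cells of a type and less RNA per cell cannot be told apart.

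**Figure D1:**
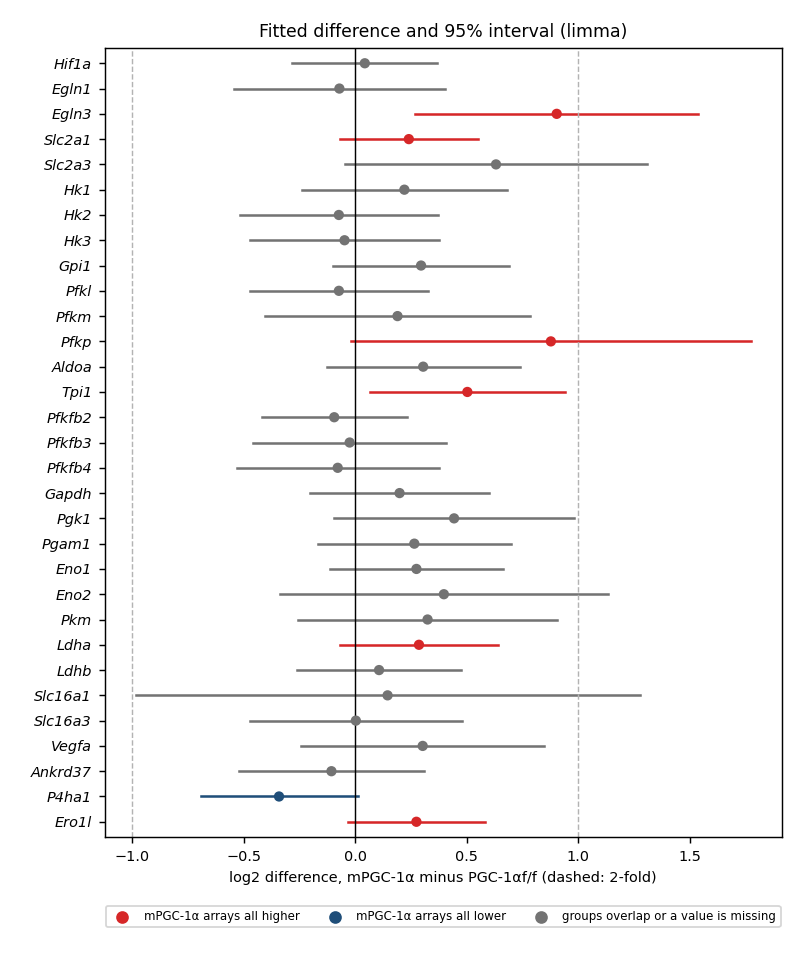
Fitted log2 difference of mPGC-1α minus PGC-1αf/f microglia for the 31 tested genes (points) with the 95% interval from limma (lines), 3 arrays a group. Only the intervals of Egln3 and Tpi1 leave out 0, and no gene passes the threshold after adjustment.

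Within the HIF pathway, the transcript of the factor itself showed no detectable difference. Hif1a, the oxygen-regulated subunit, had log2 values, relative to the 75th percentile of each array, of 2.75, 2.45 and 2.54 in PGC-1αf/f replicates 1 to 3 and of 2.57, 2.60 and 2.71 in mPGC-1α replicates 1 to 3. The groups overlapped, and the difference of 0.04 ± 0.14 (SE) had a 95% interval from -0.28 to 0.37. HIF-1α is controlled mainly through protein stability, which arrays do not measure. Egln3, an oxygen-dependent prolyl hydroxylase, had values of -4.20, -3.38 and -3.87 in controls and -3.22, -3.02 and -2.51 in mPGC-1α arrays. Each mPGC-1α value was above each control value, and the highest was that of replicate 3. The fitted difference was 0.90 ± 0.27 (SE) and did not pass the threshold (limma, adjusted p = 0.208). Egln3 was dim, and its lowest value, that of PGC-1αf/f replicate 1, was not above background, so that the size of the difference is uncertain. Without that array it was 0.71. The difference was 0.37 within slide column 2, 0.88 without PGC-1αf/f replicate 3 and 0.70 without mPGC-1α replicate 3. Its relative Egln1, the main oxygen sensor in most tissues, was measured on 4 arrays, with means of 1.87 and 1.80 and overlapping groups.

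**Figure D2:**
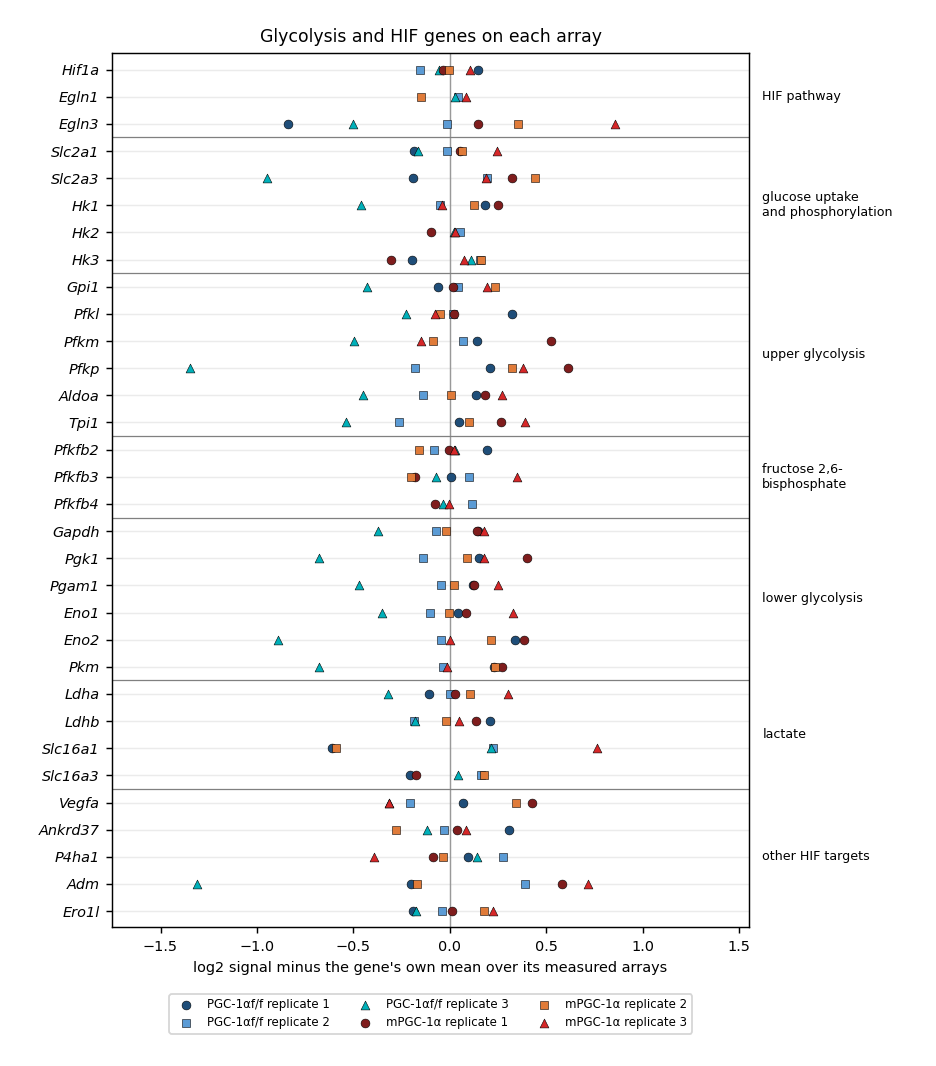
Log2 signal of each of the 32 genes on each array, relative to that gene's own mean over its measured arrays, grouped by role; blue symbols are the 3 PGC-1αf/f arrays and red and orange symbols the 3 mPGC-1α arrays. PGC-1αf/f replicate 3 (light blue triangle) is the lowest array for each of the 12 enzymes of upper and lower glycolysis.

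Among the genes of glucose uptake and phosphorylation, 3 of 5 were higher in the mPGC-1α arrays, with a median difference of 0.22, or 0.0455 without PGC-1αf/f replicate 3, and none passed the test. Slc2a1 encodes GLUT1, the glucose transporter of most cells and a HIF target. Its values were 2.20, 2.37 and 2.22 in controls and 2.44, 2.45 and 2.63 in mPGC-1α arrays. The groups did not overlap, but the gap between them was narrow, and the difference was 0.24 ± 0.13 (SE), or 1.18-fold (limma, adjusted p = 0.382). Within slide columns 1 and 2 it was 0.24 and 0.08. Slc2a3, which encodes the high-affinity transporter GLUT3, had the larger difference of 0.63, with means of -0.23 ± 0.58 and 0.40 ± 0.13 (SD, n = 3). The control spread was set by PGC-1αf/f replicate 3, and without that array the Slc2a3 difference was 0.31, whereas it was 0.70 without mPGC-1α replicate 3. Hexokinases phosphorylate glucose, and none of the 3 passed the test. Hk2, the inducible form and a HIF target, had values of 2.85 and 2.82 in PGC-1αf/f replicates 2 and 3 and of 2.70 and 2.82 in mPGC-1α replicates 1 and 3, since its spot was an outlier on the other arrays and was dropped. The Hk2 difference was -0.07, with a 95% interval from -0.52 to 0.37. Hk1, the housekeeping form, had means of 2.29 and 2.51 and a difference of 0.22, or 0.05 without PGC-1αf/f replicate 3. Hk3, a form typical of myeloid cells, had means of 2.32 and 2.27, and its second probe gave a difference of -0.38 with overlapping groups (limma, adjusted p = 0.377).

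Upper glycolysis held the largest differences among the enzymes from Gpi1 to Pkm. Of its 6 genes, 5 were higher in the mPGC-1α arrays, with a median of 0.30, and none passed the threshold after adjustment. Without PGC-1αf/f replicate 3 the median was 0.16 and 4 of 6 were higher. Tpi1, triosephosphate isomerase, had values of 3.02, 2.70 and 2.43 in controls and 3.24, 3.07 and 3.36 in mPGC-1α arrays. All mPGC-1α values were above all control values, although mPGC-1α replicate 2 and PGC-1αf/f replicate 1 were close. The Tpi1 difference was 0.50 ± 0.18 (SE), or 1.42-fold (limma, adjusted p = 0.261). It was 0.22 and 0.37 within slide columns 1 and 2, 0.36 without PGC-1αf/f replicate 3 and 0.44 without mPGC-1α replicate 3, and the other probes of Tpi1 gave differences of 0.47 and 0.57, with overlapping groups for both. Pfkp is the platelet form of phosphofructokinase, the committed step of the pathway. Its values were 1.69, 1.30 and 0.13 in controls and 2.09, 1.80 and 1.86 in mPGC-1α arrays. The mPGC-1α values lay close together and above the controls, of which replicate 3 was far below the others. The Pfkp difference of 0.88 ± 0.38 (SE), or 1.84-fold (limma, adjusted p = 0.306), was 0.42 without that array, 0.91 without mPGC-1α replicate 3, 0.40 within column 1 and 0.50 within column 2. The second Pfkp probe gave 0.57 with overlapping groups, as PGC-1αf/f replicate 1 was its highest array, and -0.18 within column 1. The other phosphofructokinase genes had overlapping groups, with means of -0.90 and -0.97 for the liver form Pfkl and 0.66 and 0.86 for the muscle form Pfkm, in controls and mPGC-1α arrays respectively. Gpi1, which isomerises glucose 6-phosphate, had means of 3.45 and 3.74, and Aldoa, aldolase, had means of 4.11 and 4.42. Both had overlapping groups. Further Gpi1 probes gave 0.31 with groups that did not overlap (limma, adjusted p = 0.358) and 0.41 with overlapping groups.

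**Figure D3:**
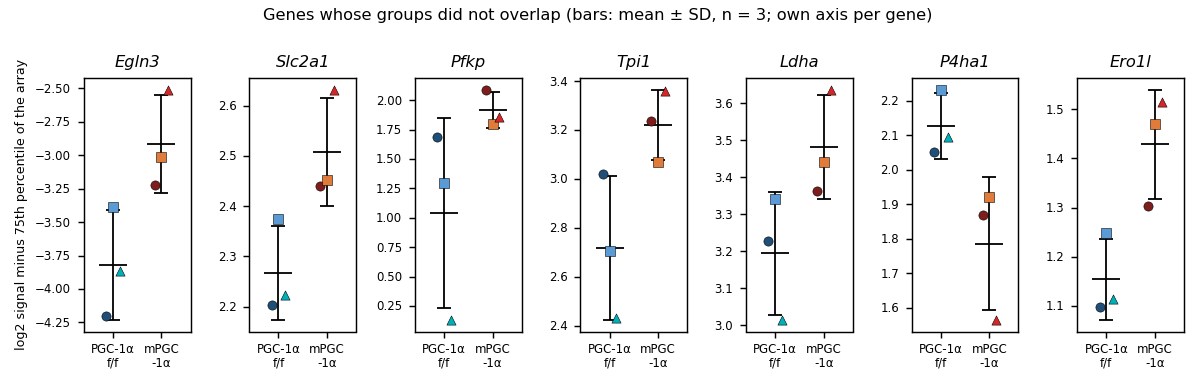
Log2 signal minus the 75th percentile of the array for the 7 genes whose groups did not overlap, with the points for each array and bars for the mean ± SD of 3 arrays; each gene has its own vertical axis. P4ha1 is lower on every mPGC-1α array, and the other 6 genes are higher.

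The enzymes that make and break fructose 2,6-bisphosphate, a potent activator of phosphofructokinase, lay slightly below 0. None of the 3 genes was higher in the mPGC-1α arrays, and their median difference was -0.08. It was -0.00347 without PGC-1αf/f replicate 2, -0.03 without PGC-1αf/f replicate 1, -0.04 without mPGC-1α replicates 1 or 2 in turn and -0.13 without mPGC-1α replicate 3, and 1 of the 3 was above 0 in 3 of these. Pfkfb3, the inducible form associated with activated macrophages, had values of 2.51, 2.60 and 2.43 in controls and 2.32, 2.30 and 2.85 in mPGC-1α arrays. Replicate 3 was the highest mPGC-1α array and the other mPGC-1α arrays were the lowest of all, so the groups overlapped, with a difference of -0.02 (95% interval -0.46 to 0.41). Pfkfb2, the cardiac form, had means of 0.46 and 0.36. Pfkfb4, another HIF-responsive form, had means of 2.16 and 2.09 over 4 arrays.

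In lower glycolysis all 6 genes were higher in the mPGC-1α arrays, by 0.20 to 0.44, with a median of 0.30, or 0.0810 without PGC-1αf/f replicate 3, and 0 of them passed the test or had groups that did not overlap. Pkm, pyruvate kinase, had values of 2.99, 2.73 and 2.09 in controls and 3.04, 3.00 and 2.75 in mPGC-1α arrays. PGC-1αf/f replicate 3 was far below the other arrays, which were close together. The Pkm difference was 0.32 ± 0.24 (SE; limma, adjusted p = 0.515), and 0.07 without that array. Pgk1, phosphoglycerate kinase and a classical HIF target, had the largest difference here, 0.44 ± 0.23 (SE), with means of 3.43 ± 0.42 and 3.87 ± 0.16 (SD, n = 3). It was 0.22 without PGC-1αf/f replicate 3. Means were 4.07 and 4.27 for Gapdh, which oxidises glyceraldehyde 3-phosphate, 3.04 and 3.31 for the mutase Pgam1, 3.37 and 3.65 for the ubiquitous enolase Eno1 and -0.62 and -0.22 for the neuronal enolase Eno2. All had overlapping groups. A second Eno1 probe gave a difference of 0.79, also with overlapping groups (limma, adjusted p = 0.323).

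The 4 lactate genes were higher by 0.00 to 0.29, with a median of 0.13, or 0.0572 without mPGC-1α replicate 3. Without PGC-1αf/f replicate 1 it was 0.0692, and 2 of the 4 genes were above 0. Ldha, the subunit of lactate dehydrogenase that favours lactate formation, had values of 3.23, 3.34 and 3.01 in controls and 3.36, 3.44 and 3.64 in mPGC-1α arrays. The groups did not overlap, though PGC-1αf/f replicate 2 and mPGC-1α replicate 1 nearly met. The Ldha difference was 0.29 ± 0.15 (SE), or 1.22-fold (limma, adjusted p = 0.369), with 0.14 and 0.10 within the slide columns, and its second probe gave 0.55, also without overlap. Ldhb, the subunit that favours the return to pyruvate, had means of 3.78 and 3.89. The lactate exporter of glycolytic cells, Slc16a3 (MCT4), had equal means of 1.47 over 5 arrays. Slc16a1 (MCT1) varied most within a group. Its values were 1.41, 2.25 and 2.24 in controls and 1.43 and 2.79 in mPGC-1α replicates 2 and 3, and the sign of its difference turned when mPGC-1α replicate 3 was left out.

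The further HIF targets pointed in both directions, with a median of 0.0843, or 0.0147 without PGC-1αf/f replicate 3, 0.00693 without mPGC-1α replicate 1 and 0.0286 without mPGC-1α replicate 3. Vegfa, the angiogenic growth factor, had values of -0.40, -0.68 and -0.79 in controls and -0.05, -0.13 and -0.79 in mPGC-1α arrays. Replicates 1 and 2 of the mPGC-1α group were above all controls and replicate 3 was level with the lowest control, and the difference was 0.30 ± 0.23 (SE; limma, adjusted p = 0.517), or 0.54 without mPGC-1α replicate 3 and 0.17 and 0.21 without mPGC-1α replicates 1 and 2. A second Vegfa probe, which matched the same transcript accession, had a larger difference of 0.95 with groups that did not overlap (limma, adjusted p = 0.201). That probe was dim, with values from -3.68 to -2.01, and was lowest on PGC-1αf/f replicate 3. Its difference was 0.19 within slide column 1 and 1.01 within column 2. Ero1l (Ero1a), an oxidase for disulphide bonds in the endoplasmic reticulum, had values of 1.10, 1.25 and 1.11 in controls and 1.30, 1.47 and 1.51 in mPGC-1α arrays. All mPGC-1α arrays were higher, by 0.27 ± 0.13 (SE), or 1.21-fold (limma, adjusted p = 0.338), and by 0.26 without PGC-1αf/f replicate 3. P4ha1, a subunit of the collagen prolyl 4-hydroxylase, had values of 2.05, 2.23 and 2.10 in controls and 1.87, 1.92 and 1.56 in mPGC-1α arrays. Every mPGC-1α array was below every control, with replicate 3 the lowest. The P4ha1 difference was -0.34 ± 0.15 (SE; limma, adjusted p = 0.308), -0.18 and -0.31 within the slide columns, and -0.23 without mPGC-1α replicate 3, and its second probe gave -0.19 with overlapping groups. Ankrd37, a small ankyrin-repeat protein, had means of -0.40 and -0.51. Adm, which encodes the vasodilator adrenomedullin, was not well above background on any control and was above it on 1 mPGC-1α array, so it was not tested and no fold is given.

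The lean of the glycolytic enzymes towards higher values rested in large part on 1 control array. PGC-1αf/f replicate 3 was the lowest of the 6 arrays for all 12 enzymes from Gpi1 to Pkm. It was the lowest for 15 of the 26 genes with 6 values (57.7%), whereas it was the lowest for 33.8% and the highest for 26.2% of all genes. It was also the lowest for 10 of 21 tricarboxylic acid cycle and pyruvate entry genes (47.6%). Their median deviation there was -0.16. The median deviation of the 12 enzymes from their own means was -0.48 on that array, and it lay between -0.06 and 0.22 on the other arrays. Over all tested genes the median deviation on that array was -0.03. Without it, the median difference of the 12 enzymes was 0.13 in place of 0.30, and that of all 31 genes was 0.06 in place of 0.22, with 21 still above 0. Leaving out any other single array kept the median of the 31 genes between 0.18 and 0.30. PGC-1αf/f replicate 3 also had 101 outlier spots, against 842 to 1382 on the other arrays. Its 75th percentile was the highest, at 2138 against 1012 to 1667. It was the only array in slide column 4, as mPGC-1α replicate 3 was in column 3. The same array had the low neutrophil and monocyte signal given above, and those markers had a median difference of 1.51, or 0.37 without it, with 19 of 20 above 0. All 20 were above background on at least 1 array. The 13 endothelial and mural markers also summed to 3.86 there, against 14.0 to 18.5 on the other arrays, with Tek, Rgs5 and Kcnj8 above background nowhere. Oligodendrocyte markers summed to 16.6 to 20.4 in controls and 10.7 to 13.9 in mPGC-1α arrays, and the sums for neuron, astrocyte, lymphocyte, border macrophage and erythroid markers overlapped between the groups. Lymphocyte markers were also lowest on PGC-1αf/f replicate 3, with a sum of 8.75 against 10.2 to 17.6 on the other arrays, and 9 of 10 were above 0 with a median difference of 0.89, or 0.33 without that array. Erythroid markers summed to 17.1 there, against 22.2 to 53.9 on the other arrays, with a median difference of 0.11, or -0.28 without it. The part of these cells, or of the properties of that array, in the glycolytic values was not tested.

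**Figure D4:**
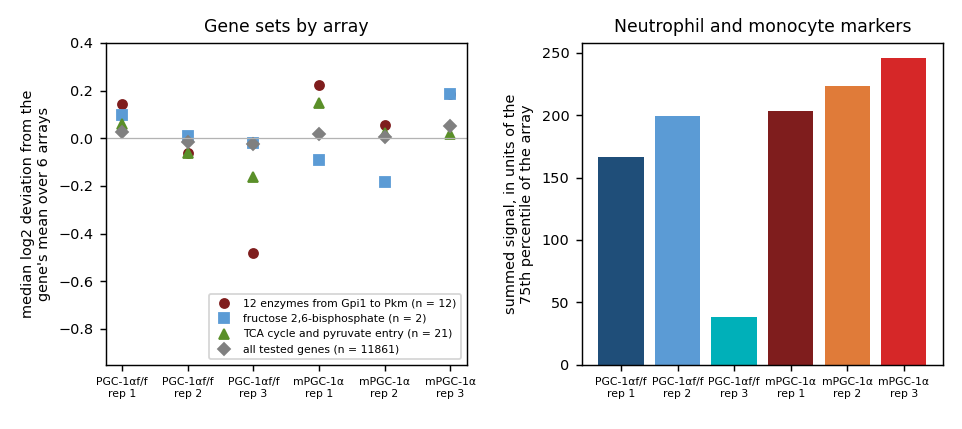
Left, the median log2 deviation from each gene's own mean on each array for the 12 enzymes from Gpi1 to Pkm, the fructose 2,6-bisphosphate genes, the tricarboxylic acid (TCA) cycle genes and all tested genes with 6 values. Right, the summed signal of 20 neutrophil and monocyte markers on the same arrays, in units of the 75th percentile; both the enzymes (-0.48) and the markers (38.3) are lowest on PGC-1αf/f replicate 3.

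Within slide column 1, mPGC-1α replicate 1 was above PGC-1αf/f replicate 1 for 18 of 27 genes with a median of 0.05, and within column 2 replicate 2 of each group gave 21 of 29 genes with a median of 0.10. The medians over all genes were 0.01 and 0.02. In all, 17 of 27 genes were higher within both columns. Neither column held PGC-1αf/f replicate 3 or mPGC-1α replicate 3. Without the latter, the median difference of the 31 genes was 0.18.

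**Figure D5:**
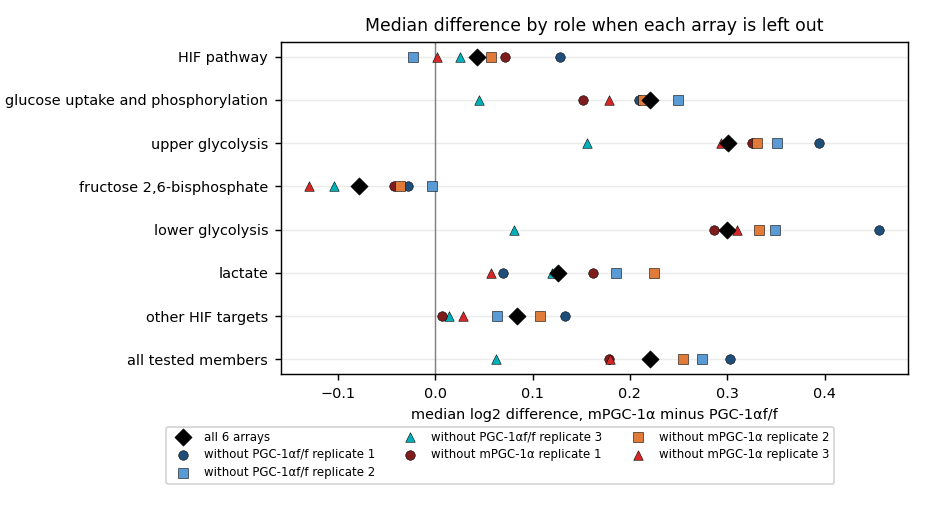
Median log2 difference of mPGC-1α minus PGC-1αf/f for the genes of each role and for all 31 tested genes, with all 6 arrays (diamonds) and with each array left out (other symbols). For lower glycolysis the median is 0.30 with all arrays and 0.08 without PGC-1αf/f replicate 3 (light blue triangle).

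The 32 genes had 58 probes in all, and 15 genes had a single probe. Of the others, 20 further probes of 13 genes were tested, and all 20 differed from the controls in the same direction as the chosen probe, with 0 past an adjusted p of 0.05. Another Vegfa probe among them was not above background on any control and entered the test only through the mPGC-1α arrays, so its direction is no support, and 19 remain without it. The probes are not independent, since they were hybridised with the same samples. For Gapdh, 6 probes were tested, with differences from 0.20 to 0.37, and each was lowest on PGC-1αf/f replicate 3.

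Related pathways were read from lists that hold none of these genes, and 0 genes passed an adjusted p of 0.05 in any of them. Of 18 tested genes among the other glycolytic and gluconeogenic genes, 4 were higher at an unadjusted p under 0.05 and 0 lower, against 7.53% and 9.21% of all probes, with a median difference of 0.14, or 0.0633 and 0.0934 without replicate 3 of the controls and of the mPGC-1α group. They were Slc2a6 (1.29), a transporter of lysosomal membranes in myeloid cells, Bsg (0.54, or 0.35 without PGC-1αf/f replicate 3), the chaperone basigin that carries SLC16A transporters to the surface, and the dim Pgam2 and Ldhd. Both of the latter were above background on 2 of 3 controls and entered the test only through the mPGC-1α arrays, where they were higher, so they add no support to the count, which is 2 without them. The lowest p-values in the other direction were those of Pgam5 (-0.25, or -0.15 without mPGC-1α replicate 3), a mitochondrial phosphatase, and Slc2a5 (-0.24, or -0.14 without mPGC-1α replicate 1), the fructose transporter known from microglia. Of 11 pentose phosphate genes, 1 was higher, G6pdx (0.48), the entry enzyme that makes NADPH, and 0 were lower, with a median of 0.06, or 0.13 and 0.19 without the same arrays and 0.00601 without mPGC-1α replicate 1. Pgls was at 0.35 and Rpia at -0.30. Rpe was at -0.23, but at 0.13 without PGC-1αf/f replicate 3. On the same scale, 24 TCA cycle and pyruvate entry genes had a median of 0.15, or 0.0918 and 0.17 without these arrays, with 4 higher, which were Mpc2 (0.56), a subunit of the mitochondrial pyruvate carrier, Sdhc (0.42), Mdh2 (0.38) and Idh3b (0.37), and 0 lower. Pdhx was at -0.25, and Fh1 was at -0.26, or -0.02 without PGC-1αf/f replicate 1. The lists were described side by side, and the difference between them was not tested.

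Regulators and other targets of HIF lay on both sides of 0. None of 19 tested regulators had an unadjusted p under 0.05, and their median difference was 0.00. Epas1, which encodes HIF-2α and is abundant in endothelium, was at 0.66, or 0.27 without PGC-1αf/f replicate 3. The ubiquitin ligase Siah2 was at 0.27, or 0.17 without PGC-1αf/f replicate 1, the HIF partner Arnt at -0.24 and the ubiquitin ligase subunit Vhl at -0.18, or -0.12 without PGC-1αf/f replicate 3. Of 33 other HIF targets, 5 were higher at an unadjusted p under 0.05 (15.2%) and 1 was lower (3.03%), against 7.53% and 9.21% of all probes. Their median difference was 0.15, or 0.115 to 0.227 when each array was left out. Among the higher genes were the transcriptional repressor Bhlhe40 (1.13), the mTOR inhibitor Ddit4 (1.48, or 0.90 without PGC-1αf/f replicate 3), the prolyl 4-hydroxylase subunit P4ha2 (0.66, or 0.41 without it) and the inducible nitric oxide synthase Nos2. Nos2 was above background on 1 of 3 controls and entered the test only through the mPGC-1α arrays, where it was higher, so no size is given for it and it adds no support to the count, which is 4 without it. The lower gene was Pdk1 (-0.42), the kinase that restrains pyruvate dehydrogenase, and its groups did not overlap. The histone demethylase Kdm3a was at -0.27. Bhlhe40, Ddit4 and Nos2 were lowest on PGC-1αf/f replicate 3, whereas the Pdk1 values of that array were the lowest of the controls but above every mPGC-1α array.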

How the data were processed

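Total RNA of P2RY12-selected microglia was amplified, labelled with Cy5 and hybridised to 1-colour Agilent mouse arrays by the authors. The deposited intensity values come from Feature Extraction (version 11.5.1.1), with background and spatial trend removed within each array, and the deposited series table repeats them without normalization between arrays. GeneSpring was used for normalization according to the methods, which state no test for single genes. The sample labels gave the groups and replicate numbers.

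Control spots and outlier spots were left out, log2 intensity was reduced by the 75th percentile of each array over 59305 spots, and spots of a probe were averaged. A probe was well above background where at least 0.5 of its spots were flagged so. A probe was kept if every array of a group was well above background, which held for 25333 of 56605, and 25257 gave a p-value. For these, two-sided tests were made with lmFit and eBayes of limma 3.58.1 in R 4.3.3 and adjusted by the Benjamini-Hochberg method; the script was tested on simulated data. Probes were named through transcript accessions in a RefSeq table of GRCm38.p6, which gave 1 symbol for 33767 probes, while the array header names mm9. Every one of the 32 genes was accounted for, with values of each array for genes with an unadjusted p under 0.05 or groups that did not overlap and for Hif1a, Slc2a1, Hk2, Pfkfb3, Pkm, Ldha and Vegfa. From each other list, the 2 genes with the lowest p in each direction among those above background on every array were named; Pgam2, Ldhd, Sdhc, Idh3b, Ddit4, P4ha2 and Nos2 were named after their values were seen. A gene that this rule would name is not reported here. The genes and lists were chosen with earlier results of these data known. Alternatives covered normalization, background correction, dim probes, replicate block, slide column, array weights, the variance model, the probe of a gene, outlier spots and leaving out each array. Python 3.11.15 (numpy 2.4.6, pandas 2.3.3) was used for the summaries and matplotlib 3.10.9 for the figures.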

Additional observations from a re-analysis of the deposited data

How the results depend on the processing

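Array number and dim signal (Egln3, Adm) limit these results. No gene passed an adjusted p of 0.05 (limma) in 17 of 18 alternatives with a fit, and 1 did with array weights, Tpi1 (adjusted p = 0.0466), where 13.8% of all probes passed and replicate 2 of each group carried weights of 5.28 and 3.4 against 0.307 to 0.806 for the others. The count of 2 genes at an unadjusted p under 0.05 became 4 with normexp, with slide column as a random block, with trend and robust estimation and with the mean over probes, 7 with array weights, where 32.4% of all probes were at such a p against 16.7% with equal weights, and 1 without the filter on dim probes, and 1 to 5 when each array was left out. Apart from array weights, the share of all probes ran from 6.97% to 20.9%. The same-numbered samples deviated together with correlations of 0.139, 0.127 and 0.0187, which does not establish pairs, and with the replicate block 4 genes had an unadjusted p under 0.05 and 0 passed after adjustment, with a median difference of 0.22. The 7 genes with groups that did not overlap became 3 in the deposited table, where the share of all probes was 9.22% in place of 25.2%, and 7 to 17 when each array was left out, where it was 31.1% to 44.2%, with 17 without PGC-1αf/f replicate 1 (44.2%), 11 without mPGC-1α replicate 2 and 11 without mPGC-1α replicate 3. The median of 0.22 was 0.0463 within slide column 1 and 0.0626 to 0.303 when each array was left out, with the lowest value without PGC-1αf/f replicate 3. Of 557 values of single genes under these alternatives 29 changed sign, in 12 genes with differences of at most 0.19 in size, and 19 genes kept their sign throughout. With the median shift Hif1a was at -0.0893, Ldhb at -0.0253 and Slc16a3 at -0.14. Slc16a3 was at -0.0739 with normexp, -0.0332 in the deposited table and -0.0146 with array weights, where Pfkm was at -0.0336 and Slc16a1 at -0.59. With the replicate block Hk2 was at 0.00555, Pfkfb4 at 0.0319 and Slc16a1 at -0.13. Slc16a1 was at -0.0227 with the slide column block, and Pfkfb4 at 0.0238 with outlier spots kept. Leaving out each array, the ranges that crossed 0 were -0.204 to 0.0696 for Pfkl, -0.53 to 0.82 for Slc16a1, -0.17 to 0.18 for Slc16a3, -0.192 to 0.0203 for Ankrd37, -0.0232 to 0.128 for Hif1a, -0.157 to 0.0944 for Hk3, -0.205 to 0.0713 for Pfkfb3, -0.0238 to 0.313 for Pfkm and -0.187 to 0.0464 for Egln1. The cause of these changes was not tested.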

Other observations

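Gapdh, which served as the reference gene for qRT-PCR in the study's methods, is one of the 12 enzymes described here. Its 6 probes were higher in the mPGC-1α arrays by 0.20 to 0.37 on the log2 scale, with overlapping groups in every case and a lowest adjusted p of 0.459 (limma). For the probe with the highest signal the difference was 0.06 without PGC-1αf/f replicate 3. All 6 were lowest on PGC-1αf/f replicate 3, on which the enzymes of glycolysis were lowest as well. Whether the reference also differed between the samples used for qRT-PCR was not tested.

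The sugar transporters Slc2a6 and Slc2a5, which are not among the described genes, lay in opposite directions. Slc2a6 had values of -2.18, -1.42 and -2.50 in controls and -1.19, -0.72 and -0.33 in mPGC-1α arrays, without overlap (limma, adjusted p = 0.171), and Slc2a5 had values of 4.06, 4.07 and 3.94 in controls and 3.58, 3.77 and 4.01 in mPGC-1α arrays, with overlap (limma, adjusted p = 0.444).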
